A study of Mus musculus with 12 samples.

Results

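Sp and KLF proteins are zinc-finger transcription factors that share a DNA-binding domain. They recognise GC boxes and the related CACCC boxes, short GC-rich elements that are common in promoters. Sp1 and Sp3 are found in nearly all cells, whereas Klf2 and Klf4 are best known in endothelium as factors raised by laminar flow through the MEK5, ERK5 and MEF2 cascade. The genes described here were 10 of the 28689 genes in the expression table. They were taken by name: Sp1, Sp2, Sp3, Sp4, Klf2, Klf4, Klf6, Klf9, Klf10 and Klf13. All 10 were found and all 10 were abundant enough to be tested. The question was whether the relatives of Sp1 and Sp3 change when both genes are deleted in endothelium.

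RNA of mouse lung endothelial cells (MLECs) was sequenced from CTR and dKO mice, with 6 libraries for each, 12 in all. In the deposited table the dKO columns carry a short form of tamoxifen in their names, although the CTR mice had it too, and they were assigned to dKO by elimination and replicate number. Both groups carried loxP-flanked alleles of both genes (Sp1 fl/fl/Sp3 fl/fl), and both received tamoxifen. The dKO mice also carried VE-CAD-CreERT2, a tamoxifen-activated Cre driven by the VE-cadherin promoter, and the CTR littermates did not. The labels call the CTR genotype WT. The mice were adult males according to the study, and the labels give no age. The cells were selected with CD31 beads, grown, and selected again with ICAM2 beads, so Cre acted only on cells that had switched on VE-cadherin. Other cells that came through the selection keep both genes. The number of mice per library is not given, so p-values measure the spread between libraries, which may in part be technical. Each library held between 15522370 and 17937491 fragments on genes.

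The libraries differed in more than Sp1 and Sp3. The summed FPKM (fragments counted on a gene, divided by its length and by the library's total) of 12 endothelial markers lay between 212 and 345 in CTR and between 389 and 525 in dKO. Of these 12 markers, 11 rose and Vwf did not pass the test. Cdh5, which encodes VE-cadherin, was the most abundant, so the labelled cell type was present. The sum of 10 macrophage markers lay between 823 and 1371 in CTR and between 2399 and 5349 in dKO, where replicate 3 was highest; 9 rose and Marco fell. The sum of 8 fibroblast markers was lower in dKO (847 to 1671) than in CTR (2155 to 2724), with 4 lower and 1 higher of 7 tested. Mesothelial markers were higher in dKO (70.0 to 150.1 against 31.1 to 41.6), as were other leukocyte markers (15.9 to 28.8 against 5.02 to 9.14). Smooth muscle and lung epithelial markers overlapped between the groups, and the 6 retina markers in the table summed to at most 0.392, although the extraction text of the labels speaks of retinas. The 3 erythroid markers summed to at most 1.08. In bulk RNA, fewer cells of a type and less RNA per cell cannot be told apart, and the part these markers have in the values below was not tested.

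The windows before the transcript starts of Sp1, Sp2, Klf2 and Klf4 are shown because these genes changed and GC boxes are the letters that Sp1 and Sp3 bind. Each stretch is the longest run, within the 250 bases before the canonical transcript start, that lies outside every annotated exon (GRCm39 genome, GENCODE annotation). In the Sp1 window 41 bases lie in exons, and its other exon-free bases are not printed. Capitals mark GC boxes, GGGCGG or its reverse complement CCGCCC. The Sp1 stretch lies at chr15:102314430-102314577 on the plus strand, that of Sp2 at chr11:96868538-96868787 on the minus strand, that of Klf2 at chr8:73072476-73072725 on the plus strand and that of Klf4 at chr4:55532529-55532716 on the minus strand. The Sp2 stretch lies within the annotated Sp2 gene, since other Sp2 transcripts start farther upstream.
Sp1: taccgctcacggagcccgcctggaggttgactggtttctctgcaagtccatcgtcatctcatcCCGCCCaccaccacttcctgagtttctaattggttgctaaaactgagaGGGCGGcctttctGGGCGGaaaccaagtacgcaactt
Sp2: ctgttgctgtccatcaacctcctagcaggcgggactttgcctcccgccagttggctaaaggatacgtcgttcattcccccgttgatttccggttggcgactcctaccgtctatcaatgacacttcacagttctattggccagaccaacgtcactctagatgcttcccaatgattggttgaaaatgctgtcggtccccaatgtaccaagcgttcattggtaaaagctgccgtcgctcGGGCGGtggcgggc
Klf2: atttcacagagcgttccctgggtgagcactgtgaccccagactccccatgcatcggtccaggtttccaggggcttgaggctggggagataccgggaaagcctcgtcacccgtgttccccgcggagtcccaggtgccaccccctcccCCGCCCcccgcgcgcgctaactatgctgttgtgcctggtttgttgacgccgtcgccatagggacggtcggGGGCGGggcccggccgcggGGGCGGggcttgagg
Klf4: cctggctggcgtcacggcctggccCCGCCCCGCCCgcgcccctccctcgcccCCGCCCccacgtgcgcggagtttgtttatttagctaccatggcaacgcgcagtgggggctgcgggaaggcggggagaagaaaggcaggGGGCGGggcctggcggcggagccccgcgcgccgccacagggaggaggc

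The whole 250-base windows held 4 GC boxes each for Sp1, Sp4 and Klf4. They held 3 each for Klf2 and Klf13, 2 for Klf10, and 1 each for Sp2, Sp3 and Klf6. Klf9, a member that fell, held 0. Among all genes tested, 47.8% of 12375 windows held at least 1 GC box, and over every gene listed the share was 32.4% of 27705. The count did not order the members by their change: Sp1 fell and Klf4 rose with 4 boxes each, and Sp4, also with 4, did not pass the test. CACCC boxes (CACCC or GGGTG) stood in the windows of Sp1, Sp4, Klf2, Klf9 and Klf13, where Klf2 held 3; in 1 of these windows, that of Klf13, the box overlapped a GC box by a base. The share over tested genes was 54.8%. The letters CTANNNNTAG, the core of a MEF2 site, stood only in the Klf6 window among the members, against 2.8% of tested genes. A match describes letters only, and whether these starts were used in MLECs is not known from FPKM. The windows of Klf9 and Sp3 lay wholly in annotated exons and are not printed.

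**Figure D1:**
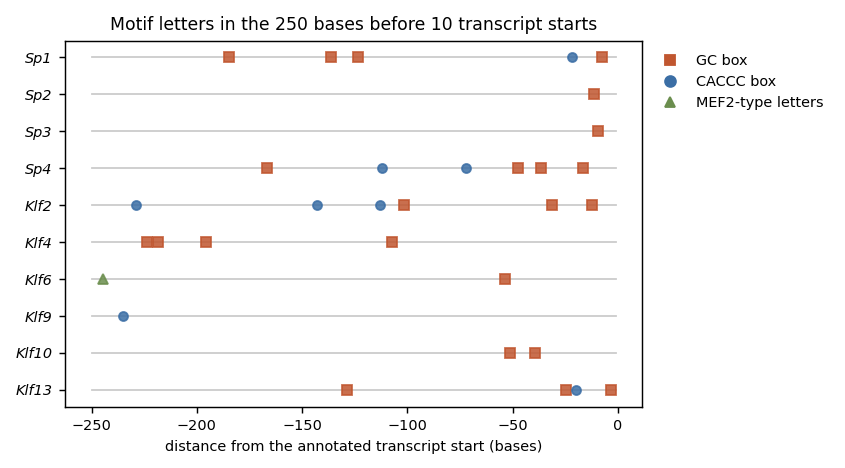
Positions of GC boxes, CACCC boxes and MEF2-type letters in the 250 bases before the canonical transcript starts of the 10 genes; the horizontal axis gives the distance from the start in bases. Sp1, Sp4 and Klf4 hold 4 GC boxes each and Klf9 holds 0.

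At an adjusted p under 0.05 (limma on log2(FPKM + 1), Benjamini-Hochberg over 12467 genes), 5 of the 10 members changed. Klf2 and Klf4 rose and Sp1, Sp2 and Klf9 fell. Among all genes tested, 53.1% were called, 20.4% as higher and 32.6% as lower in dKO, so 5 of 10 is near the background. None passed an absolute log2 fold change over 1.5, as 1.98% of the tested genes did. Only Sp1 and Klf4 did not overlap between the groups, against 27.4% of all tested genes. The median log2 fold change of the members was −0.11 and that of all tested genes −0.10. Of the called genes, 38.5% were higher in dKO on the deposited scale and 50.9% after median-of-ratios scaling, which moved the median of all genes to −0.02 and kept the 5 members called, with the directions above.

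**Figure D2:**
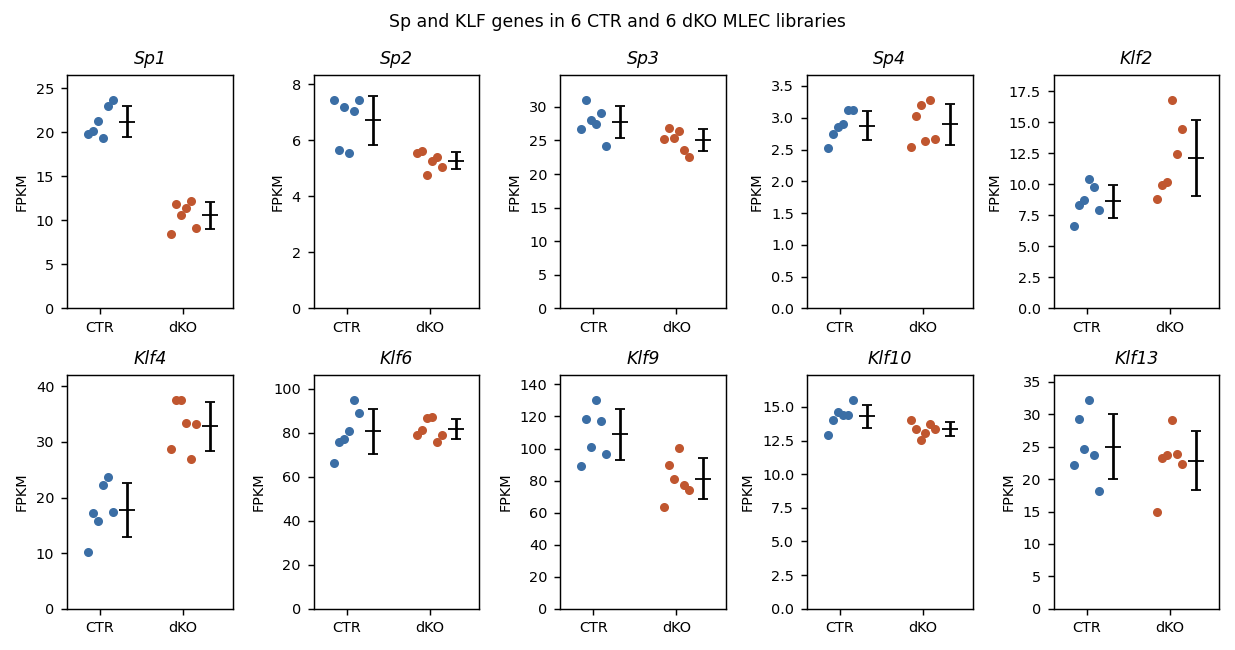
FPKM of the 10 genes in each library, with 1 point per library and the mean ± SD of the 6 libraries beside them; axes start at 0 and differ between panels. The 6 dKO libraries lie below all CTR libraries for Sp1 and above them for Klf4, and the groups overlap for the other genes.

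Sp1 activates transcription through glutamine-rich domains that contact the general machinery. Its FPKM ranged from 19.4 to 23.7 in CTR (median 20.7) and from 8.42 to 12.1 in dKO (median 10.99). Every dKO library lay below every CTR library, and the lowest was dKO replicate 1. The dKO mean was 49.9% of the CTR mean, and on the log2 scale Sp1 fell by 0.94 ± 0.09 (SE; adjusted p = 5.68e-06, limma). FPKM is given per gene, so the floxed exons cannot be looked at on their own. A stretch of Sp1 matched Cntrob over 443 bases at 95.5% identity; Cntrob had a mean of 2.42 FPKM in CTR and 1.37 in dKO.

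Sp3, the other targeted gene, competes with Sp1 for the same boxes and can activate or repress. It lay between 24.2 and 31.1 FPKM in CTR (median 27.7) and between 22.5 and 26.9 in dKO (median 25.3). The groups overlapped, and 2 dKO libraries lay below all CTR libraries. Its log2 fold change was −0.14 (95% interval −0.29 to 0.00, adjusted p = 0.0902, limma). At this test, RNA counted over the whole gene was called as lower for Sp1 and not for Sp3. FPKM per gene cannot show whether the floxed exons of Sp3 are missing. The paper reports less Sp1 and Sp3 protein in the aortic endothelium of dKO mice by immunofluorescence, a different measure in other cells. It also shows western blots of both proteins in cultured endothelial cells of CTR and dKO mice. Its text does not describe the outcome of these blots for Sp1 and Sp3. Without CTR replicate 6, the lowest CTR library for Sp3, the adjusted p was 0.0326.

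Sp2 binds mainly CCAAT-associated sites through its partner NF-Y rather than GC boxes. Its FPKM ranged from 5.55 to 7.45 in CTR (median 7.11) and from 4.77 to 5.63 in dKO (median 5.33). In dKO, 5 of 6 libraries lay below all CTR libraries. The CTR libraries fell into a low pair, replicates 2 and 4, and 4 higher ones. Sp2 fell by 0.29 on the log2 scale (SE 0.08, adjusted p = 0.00829, limma). It shares 492 identical bases with D030028A08Rik, whose mean was 0.995 FPKM in CTR and 0.559 in dKO, so fragments of this stretch are uncertain.

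Sp4, the close relative of Sp1 known from neurons, had 2.53 to 3.13 FPKM in CTR (median 2.87) and 2.55 to 3.29 in dKO (median 2.85). The ranges covered each other almost fully. Its log2 difference was 0.00 (95% interval −0.15 to 0.16, adjusted p = 0.961), and its sign turned under other settings. At the upper end of the interval, a rise of Sp4 would stay under 0.16 on the log2 scale.

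Within a library, the balance among the Sp genes moved away from Sp1. Sp1 made up 36.2% ± 2.36 (SD, n = 6) of the summed FPKM of Sp1, Sp2, Sp3 and Sp4 in CTR and 24.1% ± 2.38 (SD, n = 6) in dKO (exact permutation test, two-sided, p = 0.00216, which is the lowest value that 12 libraries in 2 groups of 6 can give). Shares do not depend on how libraries are scaled to each other. The share of Sp3 was 47.4% ± 3.57 in CTR and 57.2% ± 2.36 in dKO, without overlap (exact permutation test, p = 0.00216, adjusted over 4 shares p = 0.00289). That of Sp4 was 4.92% and 6.62%, also without overlap and with the same p. The share of Sp2 was 11.5% in CTR and 12.1% in dKO and did not pass (exact permutation test, p = 0.39). The sum itself was 58.5 ± 2.45 FPKM in CTR and 43.8 ± 2.86 FPKM in dKO. Sp3 was therefore the most abundant of the Sp genes in both groups, and its FPKM was not called as higher. A fall of Sp1 by itself raises the shares of the others, so their p-values do not show a rise of Sp3 or Sp4.

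The log2 ratios within a library show the same shift. The ratio of Sp3 to Sp1 was 0.37 ± 0.19 (SD, n = 6) in CTR and 1.17 ± 0.18 in dKO. The ratios of Sp2 and Sp4 to Sp1 rose by 0.65 and 0.95 on the log2 scale. Each of these ratios separated the groups fully (exact permutation test over 4 ratios, adjusted p = 0.00289). Sp1 is the denominator of each and separated the groups by itself. These ratios are therefore no separate support for a change of Sp2, Sp3 or Sp4. Sp1 lost more than Sp2, although both fell.

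**Figure D3:**
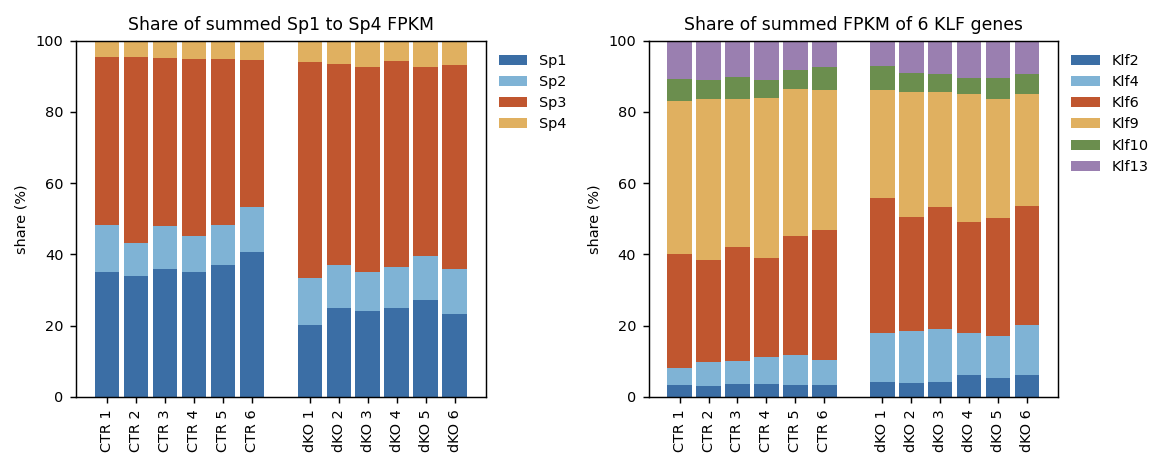
Share of each gene (%) in the summed FPKM of Sp1 to Sp4 (left) and of the 6 KLF members (right), with 1 stacked bar per library. The Sp1 band is narrower in each dKO library than in each CTR library, and the Klf4 band is wider.

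Klf4 restrains inflammatory and clotting genes in endothelium and is also expressed in macrophages. Its FPKM ranged from 10.3 to 23.8 in CTR (median 17.3) and from 26.9 to 37.6 in dKO (median 33.2). Every dKO library lay above every CTR library. CTR replicate 1 was the lowest of all 12, and dKO replicates 2 and 3 were the highest. The mean rose from 17.8 ± 4.84 to 32.9 ± 4.40 FPKM (SD, n = 6 each), or 0.88 ± 0.16 on the log2 scale (SE; limma adjusted p = 0.000689). It was called in all 22 other settings.

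Klf2, the flow-induced factor that raises Nos3 and Thbd, was less abundant. It lay between 6.62 and 10.4 FPKM in CTR (median 8.50) and between 8.82 and 16.8 in dKO (median 11.3). In dKO, replicates 4, 5 and 6 exceeded all CTR libraries, and replicates 1, 2 and 3 lay within the CTR range. The log2 difference was 0.43 ± 0.14 (SE; limma adjusted p = 0.0249). This call was lost without CTR replicate 1 (0.36, adjusted p = 0.0544), without dKO replicate 6 (0.37, adjusted p = 0.057) and with no filter on low genes (adjusted p = 0.0516).

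The log2 ratio of Klf4 to Klf2 was 0.93 ± 0.22 (SD, n = 6) in CTR and 1.39 ± 0.38 in dKO, a difference of 0.46 (exact permutation test, p = 0.0433). The groups overlapped. Of the 3 dKO libraries with the least Klf2, replicate 1 was also among the 3 with the least Klf4. The others, dKO replicates 2 and 3, had the most Klf4, and dKO replicate 4 had the most Klf2. The p exceeded 0.05 when any of 8 of the 12 libraries was left out, as the closing section gives.

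Klf9, a factor raised by glucocorticoids and thyroid hormone, was the most abundant member in CTR. It ranged from 89.3 to 130.3 FPKM in CTR (median 109) and from 63.5 to 100.2 in dKO (median 79.1). In dKO, 4 of 6 libraries lay below all CTR libraries, and dKO replicates 2 and 4 reached into the CTR range. The mean fell from 109 ± 15.7 to 81.0 ± 12.8 FPKM (SD, n = 6 each), or −0.42 ± 0.12 on the log2 scale (SE; limma adjusted p = 0.00891). Klf9 shares 333 identical bases with Gm56648, which was not analysed here.

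Klf6, an early response gene of injured vessels, ranged from 66.1 to 94.9 FPKM in CTR and from 75.8 to 87.2 in dKO. The dKO libraries all lay inside the CTR range. The log2 difference was 0.02 (95% interval −0.15 to 0.20, adjusted p = 0.823) and changed sign after rescaling to TPM or quantile normalization. Klf10, a TGF-beta early gene, had 12.9 to 15.5 FPKM in CTR and 12.6 to 14.0 in dKO (log2 difference −0.09, 95% interval −0.21 to 0.02, adjusted p = 0.16). Relative to its mean, it had the least spread of the KLF members in each group. Klf13, a repressor at GC and CACCC boxes known from lymphocytes and heart, had 18.1 to 32.2 FPKM in CTR and 14.9 to 29.1 in dKO (log2 difference −0.13, 95% interval −0.46 to 0.21, adjusted p = 0.508). These intervals leave room for a change of Klf13 of the size seen for Klf9.

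The 6 KLF members summed to 255 ± 30.7 FPKM in CTR and 244 ± 24.4 FPKM in dKO, a difference within the spread (exact permutation test, p = 0.489). Their makeup moved. Klf9 held 42.6% ± 2.19 (SD, n = 6) of the sum in CTR and 33.1% ± 2.14 in dKO. Klf4 held 6.87% ± 1.17 and 13.5% ± 1.37, and Klf2 held 3.37% ± 0.20 and 4.95% ± 1.01. Each of these 3 shares separated the groups fully (exact permutation test, adjusted over 6 shares p = 0.00433). Klf2 overlapped as FPKM and did not as a share. Klf9 was the largest part of the CTR sum, so its fall by itself raises the shares of the others. The shares of Klf2 and Klf4 are therefore no separate support for a rise of these genes. The shares of Klf6, Klf10 and Klf13 did not pass (exact permutation test, adjusted p from 0.393 to 0.734). The shares other than that of Sp1 were chosen after seeing the data.

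In order of FPKM, CTR MLECs had Klf9, Klf6, Sp3, Klf13, Sp1, Klf4, Klf10, Klf2, Sp2 and Sp4. Neighbours overlapped except between Klf6 and Sp3, Klf10 and Klf2, and Sp2 and Sp4. In dKO the order was Klf6, Klf9, Klf4, Sp3, Klf13, Klf10, Klf2, Sp1, Sp2 and Sp4. Klf4 moved from below Sp1 to above Sp3, and exceeded Sp3 in 6 of 6 dKO libraries. Sp1 moved from above Klf4 to below Klf2, which it overlapped. Klf6 and Klf9 could not be ordered in dKO, where Klf6 was higher in 3 of 6 libraries.

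Each member was also set against the markers of its own library, a comparison chosen after seeing the data. The mean log2(FPKM + 1) of the endothelial markers was 0.78 higher in dKO. Relative to it, Klf4 differed by 0.10 between the groups (0.33 ± 0.31 in CTR and 0.43 ± 0.33 in dKO, SD, n = 6 each; exact permutation test, p = 0.589). Klf2 was lower by this measure, with a difference of −0.35 (exact permutation test, p = 0.0108, adjusted over 20 comparisons p = 0.0114). Klf2 thus rose less than these markers, and for Klf4 the difference lay within the SD of either group. Relative to the macrophage markers, whose mean was 1.77 higher in dKO, Klf4 was lower by −0.89 (exact permutation test, p = 0.00649). A gene that did not move at all would be lower by 0.78 and 1.77 on these measures, so the values of the other 8 members are not given.

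**Figure D4:**
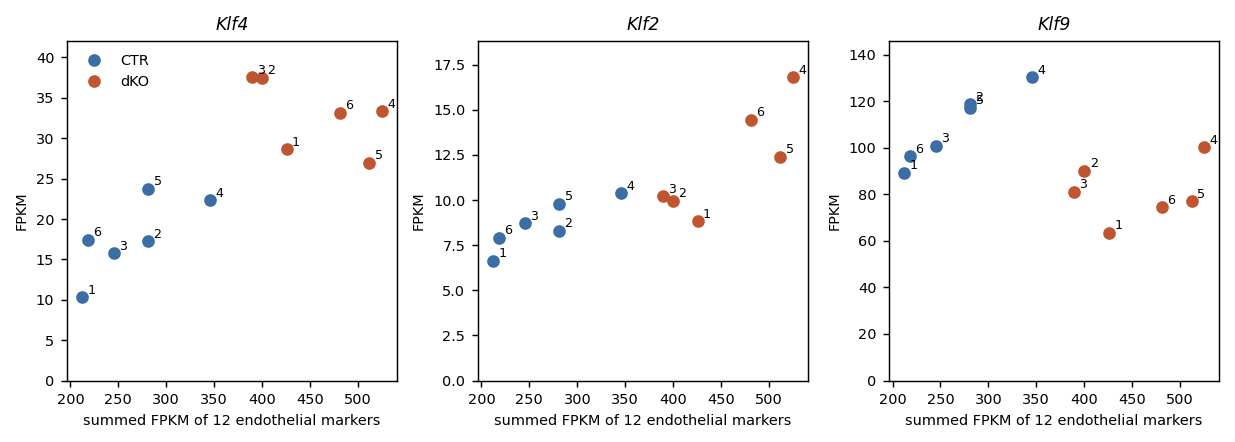
FPKM of Klf4, Klf2 and Klf9 against the summed FPKM of 12 endothelial markers, with 1 point per library labelled by its replicate number. The dKO libraries lie to the right (389 to 525) of the CTR libraries (212 to 345); Klf4 is higher in every dKO library, while dKO replicates 1 to 3 lie within the CTR range for Klf2 and dKO replicates 2 and 4 for Klf9.

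Within a group the members followed markers unevenly. Over the 6 CTR libraries, Pearson's r with the endothelial marker mean was 0.95 for Klf9, 0.93 for Klf13, 0.81 for Klf2 and −0.88 for Sp2. Over the 6 dKO libraries these values were 0.23, 0.41, 0.80 and 0.21. Klf2 was the one of these 4 genes that kept a high r in both groups. For Klf4, r with the endothelial marker mean was 0.66 over the CTR and −0.57 over the dKO libraries. With fibroblast markers, r in CTR and dKO was 0.98 and 0.66 for Klf9 and 0.91 and 0.73 for Klf2. The points share their libraries and the FPKM scale, so these values are descriptions.

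Some members moved together within groups. Klf9 and Klf13 had an r of 0.80 over the CTR and 0.90 over the dKO libraries, the highest of the 45 pairs of members by the smaller of both values. Klf4 and Klf6 followed with 0.84 and 0.72, then Sp1 and Sp4 with 0.79 and 0.69. These values were not recomputed without single libraries. CTR replicate 1 was lowest in its group for 6 of the 10 members, dKO replicate 1 for 5, and dKO replicate 4 was highest for 4. Over all tested genes, those most like Sp1 in both groups were Rraga, Zyg11b and Pappa (r from 0.92 to 0.96, n = 6 libraries in each group). For Klf4 they included Pacs2 and Acad12 (0.91 to 0.96), and for Klf9 they were Shisa6, Lrp4 and Scube2 (0.96 to 0.99). These are the highest values over all tested genes, so the choice itself favours a high r. Rraga, Zyg11b and Pappa were called as lower, as Sp1 was (−0.44, −1.20 and −1.19 on the log2 scale). Pacs2 was called as higher, as Klf4 was (0.26), while Acad12 differed by −0.01. Lrp4 and Scube2 were not called (−0.44 and −0.46), and Shisa6 differed by 0.50 (limma adjusted p = 0.0595), against the fall of Klf9. A likeness within groups thus went with a like change for some of these genes and not for others.

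The rest of the family gives the setting of the members. Of 26 family genes, 25 were in the table and 17 were tested. Of these, 10 were called, 4 higher and 6 lower, beside the 53.1% of all genes. Sp8 was not analysed here. Klf15, a glucocorticoid-induced metabolic factor, fell most. It reached 27.0 FPKM in CTR (median 22.2, lowest 13.02) and lay between 3.76 and 13.6 in dKO (median 8.18), and 5 of 6 dKO libraries lay below all CTR libraries. Its log2 difference was −1.30 ± 0.24 (SE; limma adjusted p = 0.000585).

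Klf11, the relative of Klf10 with the same Sin3-binding repressor domain, ranged from 3.74 to 6.20 FPKM in CTR and from 1.99 to 3.46 in dKO, without overlap (log2 difference −0.67, SE 0.11, adjusted p = 0.000259). Klf10 was not called. Klf11 and Klf15 had an r of 0.92 over the CTR and 0.95 over the dKO libraries, and Klf9 and Klf15 one of 0.87 and 0.82. Klf16 rose by 0.36 (adjusted p = 0.0217). Klf3, a CtBP-dependent repressor, rose by 0.23 (adjusted p = 0.0452), and Klf12, another, fell by 0.33 on the log2 scale (adjusted p = 0.0461). The last 2 calls held in 13 and 12 of the 22 other settings. Klf5 (log2 difference 0.24, adjusted p = 0.172) and Klf7 (−0.22, adjusted p = 0.157) did not pass.

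**Figure D5:**
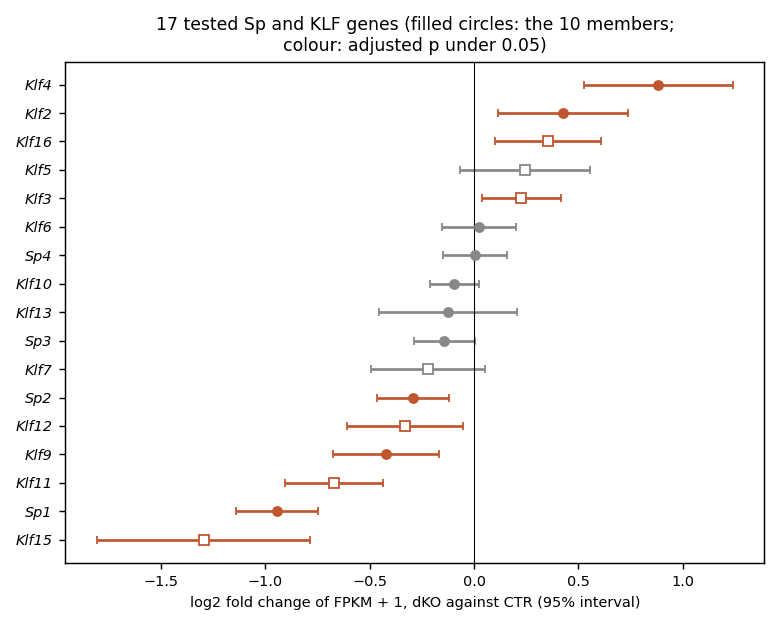
Log2 fold change of FPKM + 1 (dKO against CTR) with its 95% interval for the 17 tested Sp and KLF genes, ordered by size; filled circles are the 10 members, open squares the others, and colour marks an adjusted p under 0.05. Klf15 and Sp1 lie lowest and Klf4 highest.

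The other 8 family genes in the table were too low to be tested. Klf8 had a mean of 0.616 FPKM in CTR and 0.276 in dKO, from 20 to 71 fragments per library, and all dKO libraries lay below all CTR libraries. With no filter on low genes its log2 difference was −0.34 (adjusted p = 0.000344, limma), on a scale that understates the change of low genes. Klf1, Sp5 and Sp9 were called there as well, Klf1 lower, but with at most 8, 8 and 32 fragments in a library. Klf1 shares 817 bases with Gcdh, which was more abundant (10.5 FPKM in CTR and 7.76 in dKO). Sp6, Sp7, Klf14 and Klf17 had at most 3 fragments in any library.

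A list of 12 genes covered the MEK5, ERK5 and MEF2 cascade, which acts on Klf2 and Klf4, and its partners. Of these, 0 were higher, 3 lower and 9 not called, with a median log2 fold change of −0.01. Among all tested genes 20.4% were higher and 32.6% lower, so counts this small are near the background. Map2k5, which encodes MEK5, fell by 0.26 on the log2 scale (adjusted p = 0.00378), and Mef2d, a transcription factor at the end of the cascade, fell by 0.26 (adjusted p = 0.0112). The third, Krit1, encodes a brake on this cascade (−0.18, adjusted p = 0.0396). Mapk7, which encodes ERK5, had 10.3 FPKM in CTR and 10.4 in dKO.

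Genes that KLF2 or KLF4 are known to raise in endothelium were mostly higher. Of 6 tested, 5 rose and 0 fell, with S1pr1 not called. Ass1, an enzyme that remakes arginine for nitric oxide, rose by 1.57 (SE 0.09, adjusted p = 1.88e-07), and Thbd, the thrombin receptor thrombomodulin, by 1.34 (SE 0.14, adjusted p = 9.67e-06). Tek, also a rising member of this list, is an endothelial marker too. Of 5 tested genes that these factors are known to lower, 2 rose and 0 fell. Ccl2, a monocyte chemokine that macrophages also make, rose by 3.02 (SE 0.39, adjusted p = 5.06e-05), and Vcam1, a leukocyte adhesion molecule, by 0.44 (adjusted p = 0.0268). The call of Vcam1 held in 19 of the 22 other settings. Both lists therefore held rising genes, beside 20.4% of all tested genes. Of the marker sums given above, the endothelial, macrophage, mesothelial and other leukocyte ones were also higher in dKO. The fibroblast sum was lower, and the smooth muscle and lung epithelial sums overlapped.

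Sp1 coactivators and modifying enzymes were lower or not called. Of 18 genes, 0 rose, 8 fell and 10 were not called, beside 32.6% of all genes that fell. The median log2 fold change was −0.18. Ogt, the enzyme that attaches O-GlcNAc to Sp1 and many other proteins, fell by 0.82 on the log2 scale (adjusted p = 7.58e-05), and Oga, which removes it, fell by 0.60 (adjusted p = 4.02e-05). Of 10 KLF corepressors and ubiquitin ligases, 3 rose and 2 fell, near the 20.4% and 32.6% of all tested genes. The ligase genes Fbxo32 and Smurf1 rose by 0.51 and 0.38 (adjusted p = 0.0234 and 0.00392), and Vhl and Sin3a fell by 0.41 and 0.16 on the log2 scale (adjusted p = 0.00186 and 0.0373). The call of Sin3a held in 12 of the 22 other settings.

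Lists for signals that act on single KLF genes are read against 20.4% higher and 32.6% lower among all tested genes. Of 12 immediate early genes, 2 rose and 5 fell, which is near those shares. Dusp1, a phosphatase gene, rose by 0.93 and Fos by 0.69 (adjusted p = 4.08e-06 and 0.00446), while Egr1, a zinc-finger factor that binds overlapping GC-rich sites, fell by 2.08 and Ier2 by 1.07 on the log2 scale (adjusted p = 1.52e-05 and 3.48e-05). Of 10 glucocorticoid and circadian genes, 2 rose and 3 fell, again near the background. Nr1d1 and Sgk1 rose by 0.88 and 0.55 (adjusted p = 8.09e-05 and 0.00018), and the clock genes Per2 and Bmal1 fell by 0.79 and 0.31 on the log2 scale (adjusted p = 7.27e-05 and 0.00323). The third gene of this list that fell was Per1 (log2 difference −0.23, limma adjusted p = 0.00799). Fkbp5, a glucocorticoid target, was not called (59.8 FPKM in CTR and 53.6 in dKO). Whether the fall of Klf9 and Klf15 has to do with glucocorticoids was not tested. Of 9 genes of TGF-beta signalling and its feedback, listed beside Klf10, 4 rose and 1 fell, beside the same shares. The inhibitory Smad genes Smad7 and Smad6 rose by 0.79 and 0.41 (adjusted p = 3.08e-05 and 0.0352), and Smad3 fell by 0.23 on the log2 scale (adjusted p = 0.0463), while Klf10 was not called. The calls of Smad6 and Smad3 held in 11 and 10 of the 22 other settings.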

How the data were processed

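Upstream, the authors used FastQC and Trimmomatic on the reads, STAR with the mm39 genome, and sambamba to keep unique alignments. The submitters' processing notes also name Bowtie2 2.2.3, HISAT2 2.1.0, TopHat2 and DESeq2. The counting program, annotation and strand setting are not given in the sources used here. The authors deposited FPKM values for 28689 genes. Of these, 27706 (96.6%) were matched to GENCODE names.

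Fragments were recovered by searching for library totals and gene lengths that make the FPKM values whole. All genes (100%, tolerance 0.02) came out whole, but only 1848 fitted lengths equal the annotated exon length, so fragments are less certain than FPKM. Replicates within a group differed by a chi-square of at least 11.3 per gene over 30 pairs, so no library repeats another.

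The 12467 genes that reached 1 FPKM in 6 or more of the 12 libraries were tested with limma 3.58.1 in R 4.3.3 (lmFit, eBayes with a trend) on log2(FPKM + 1), as the values are not counts, with Benjamini-Hochberg adjustment over all of them. This scale understates the change of low genes. Single shares and ratios were tested two-sided by exact permutation over all 924 assignments of libraries to groups. The limma step was also run on simulated counts in which few genes changed. That setting differs from these data, where 53.1% of the tested genes were called. Shared sequence was sought with BLAST 2.17.0 (at least 150 bases at 95% identity). Windows were read from GRCm39. Python 3.11.15, NumPy 2.4.6, pandas 2.3.3, SciPy 1.17.1 and Matplotlib 3.10.9 were used.

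The members, gene lists and marker lists were chosen with earlier results of these data known. Named were the members, the other family genes and, per list, the 2 largest rises and 2 largest falls past the threshold, and, for Sp1, Klf4 and Klf9, the 3 genes with the highest value of the lower r of both groups. For Klf4, 1 of these 3 is not reported here. Other genes named with values (Krit1, Mapk7, S1pr1, Tek, Per1, Fkbp5, Marco, Vwf, Cdh5 and sequence partners) were chosen after their values were seen. Alternatives were no filter or one on the mean FPKM, pseudocounts of 0.1 and 0.01, TPM, median-of-ratios and quantile scaling, robust eBayes, limma-voom on recovered fragments, a replicate block and leaving out each library. All were run.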

Additional observations from a re-analysis of the deposited data

How the results depend on the processing

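The count of called members was 5 in most of the 22 other settings and stayed between 4 and 6. It was 4 where Klf2 was lost, and 6 where Sp3 passed, after rescaling to TPM (−0.20, adjusted p = 0.0496) or without CTR replicate 6. The count of called family genes lay between 8 and 11. With no filter, Klf2, Klf3 and Klf12 did not pass, and the count there includes the low genes Klf1, Klf8, Sp5 and Sp9. The log2 difference of Sp4 reversed to −0.039 after rescaling to TPM and lay between −0.024 and 0.031 with a library left out, with −0.022 and −0.005 without CTR replicates 1 and 2 and −0.006, −0.018 and −0.024 without dKO replicates 2, 3 and 5. That of Klf6 reversed to −0.025 after rescaling to TPM, −0.052 after quantile normalization and −0.030 without CTR replicate 1, and lay between −0.030 and 0.072 with a library left out. None of these passed the test, and the cause was not tested.

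The log2 ratio of Klf4 to Klf2 lay between 0.37 and 0.55 with a library left out. Its exact permutation p ranged from 0.0152 to 0.0887 and exceeded 0.05 without CTR replicates 1, 2, 3, 4 or 6 and without dKO replicates 1, 2 or 3. With a pseudocount of 0.01 it was 0.46 (exact permutation p = 0.0563). The cause was not tested. Of the comparisons of named genes with other settings, 807 kept their direction and side of the threshold, 61 lost the threshold, 3 gained it and 9 reversed.

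Same-numbered libraries of the groups correlated between −0.11 and 0.57 in their deviations from the group means. The highest values were 0.57 for replicate 4 and 0.44 for replicate 1. Libraries of different number correlated between −0.57 (CTR replicate 4 with dKO replicate 1) and 0.54 (CTR replicate 6 with dKO replicate 1). Whether libraries of the same number share a batch was not tested. With the replicate number as a block, 6955 genes were called in place of 6614, and the same 5 members and 11 family genes. The difference in the Sp1 share, −12.1 percentage points, then had p = 0.0312 (exact sign-flip test, the smallest 6 pairs allow), and the ratio of Klf4 to Klf2, 0.456, had p = 0.188. The depth was enough for 228 or more fragments of each of Sp1 to Sp4 in every library; the untested family genes had far fewer.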
